A study of Rattus norvegicus with 10 samples.

Results

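The enzymes of amino acid breakdown were followed as a set of 40 rat gene symbols, taken by name from the deposited tables of 32883 genes. Of these symbols, 38 had a row, and all 38 reached the level required for testing, among 11083 kept genes. Prodh and Cth had no row under those names. The samples were livers of 5-week-old males of the Eisai hyperbilirubinemic rat (EHBR) and of the Sprague-Dawley (SD) strain, with 5 of each, numbered 1 to 5. EHBR is a mutant line derived from SD that lacks Mrp2, the pump encoded by Abcc2 that exports conjugated bilirubin into bile. Loss of Mrp2 and any other difference between the strains cannot be told apart in these samples. The labels name no treatment and say nothing of litters or housing, so a p-value here speaks only of the spread among these livers.

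The liver breaks down most dietary amino acids. A pathway usually begins with a step that removes or transfers the amino group, and the carbon skeleton that remains is passed to glucose synthesis, to ketone bodies or to the citric acid cycle. Several of the first enzymes, among them tyrosine aminotransferase and tryptophan dioxygenase, are textbook targets of glucocorticoids and glucagon, and their transcripts change with feeding and time of day. Others belong to the mitochondrion, where branched-chain amino acids, lysine, sarcosine and glycine are oxidised.

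Poly(A) RNA was sequenced to between 13.8 and 19.6 M reads assigned to genes per sample. Levels are given in TPM, which divides reads by gene length and scales each sample to the same total. A difference is that of mean log2(TPM + 1), SD subtracted from EHBR, tested with limma (two-sided, Benjamini-Hochberg adjustment over the kept genes, threshold 0.05), and on this scale low TPM values show less than their true fold. Abcc2 served as the check of the labels. It showed 199, 224, 271, 60.0 and 66.4 TPM in the SD samples and 17.2, 17.6, 12.3, 11.9 and 10.1 TPM in the EHBR samples. Abcc2 was lower in every EHBR sample than in any SD sample (log2 difference -3.25, SE 0.41, adjusted p = 0.000996, limma). In both strains the samples numbered 1 to 3 stood apart from those numbered 4 and 5. That division was seen in the data, the labels give no reason for it, and it is balanced between the strains. Of 7 hepatocyte markers none passed over all samples in limma or voom (1 at an unadjusted p under 0.05), and with a term for the division 1, Tf, was higher. Of 7 markers of kidney, pancreas and gut, Umod, Slc34a1 and Prss1 were at 0 in every sample. Cela1, an elastase of the pancreas and gut, was lower in every EHBR sample, with means of 52.6 TPM in SD and 25.9 TPM in EHBR (-0.99, adjusted p = 0.00259, limma). The other kept marker of the list, Fabp2, had a difference above 0 and did not pass over all samples. In samples 1 to 3 alone Fabp2 was higher in EHBR (adjusted p under 0.05, limma). In samples 4 and 5 alone it was lower only at an unadjusted p under 0.05. The sum of that list was 60.4 to 103 TPM in SD and 44.3 to 52.0 TPM in EHBR.

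Between the strains, 6 of the 38 enzymes rose in EHBR and none fell, while 32 did not pass the test (limma). Over all kept genes 3.82% were called higher and 1.63% lower. At an unadjusted p under 0.05 the members counted 17 higher and 1 lower, against 1835 and 482 of the 11083 kept genes. Voom on whole reads recovered from the files called 3 members higher and 2 lower, against 1.91% and 2.32% of 11044 genes. The genes that rose were Uroc1 of histidine breakdown, Sardh of sarcosine breakdown, Mccc1 of leucine breakdown, Aass of lysine breakdown, the cytosolic aspartate transaminase Got1, and Etnppl, which acts on ethanolamine phosphate rather than on an amino acid. The median log2 difference of the 38 was 0.25, against 0.15 over all kept genes. The difference was above 0 for 31 of the 38, as it was for 73.1% of kept genes. In 8 members (Haao, Uroc1, Sardh, Bckdhb, Mccc1, Mccc2, Gcdh and Got1) every EHBR sample lay above every SD sample, as in 6.45% of kept genes, and in 1 member, Cbs, every EHBR sample lay below, as in 2.02%. Together the 38 transcripts made up 0.955% to 1.16% of TPM in the SD samples and 1.14% to 1.42% in the EHBR samples, ranges that overlap. Of the 19 members whose deposited annotation names the mitochondrion 4 rose, and of the other 19 members 2 rose.

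The balance of directions followed the scaling. With each sample centred on the median of its kept genes, the median difference over all kept genes moved from 0.15 to -0.02. Of the members, 3 were then higher (Got1, Mccc1 and Uroc1) and 2 lower (Cbs and Ivd), against 1.74% and 2.4% of kept genes. Mccc1 and Uroc1 passed under all 24 other settings tried, and Got1 under all but 1.

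**Figure D1:**
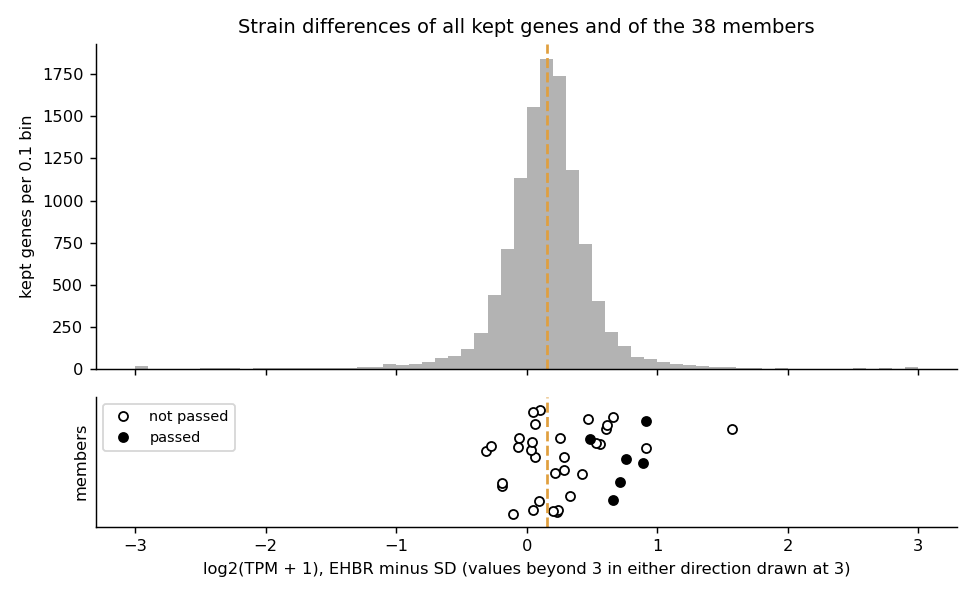
Upper part: number of kept genes per bin of 0.1 in the strain difference, log2 of TPM + 1, EHBR minus SD, with the median of 0.15 as a dashed line. Lower part: the 38 members on the same axis, spread vertically only for display, with the 6 that passed the test filled. The filled points lie between 0.49 and 0.91, and the farthest point to the right, Sds at 1.57, is open.

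The starts of 5 of these genes are printed because 4 of them rose in EHBR and have a single start in the RefSeq table of build GRCr8, and because Tat is the textbook hormone-regulated gene of the set. Each run gives the 250 bases before the start, 5′ to 3′ on the gene's strand. Capitals mark letters of the CCAAT box (CCAAT), of an element bound by C/EBP and ATF factors (TGATGNAA) and of a C/EBP element (TTGCNNAA), searched on both strands, so that ATTGG is a CCAAT box read on the other strand. Uroc1 lies at chr4:124401869-124402118, Mccc1 at chr2:120779242-120779491, Aass at chr4:52628812-52629061, Got1 at chr1:252329872-252330121 and Tat at chr19:54856354-54856603.
Uroc1: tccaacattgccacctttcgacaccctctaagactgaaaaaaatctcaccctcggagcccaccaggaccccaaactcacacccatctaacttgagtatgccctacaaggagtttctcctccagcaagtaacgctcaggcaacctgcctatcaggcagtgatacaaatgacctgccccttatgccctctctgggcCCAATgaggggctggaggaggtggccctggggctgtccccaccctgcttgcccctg
Mccc1: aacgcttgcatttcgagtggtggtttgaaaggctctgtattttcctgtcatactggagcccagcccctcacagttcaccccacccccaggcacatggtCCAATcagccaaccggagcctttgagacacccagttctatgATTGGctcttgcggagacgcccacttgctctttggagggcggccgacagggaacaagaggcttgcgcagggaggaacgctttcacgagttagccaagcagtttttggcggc
Aass: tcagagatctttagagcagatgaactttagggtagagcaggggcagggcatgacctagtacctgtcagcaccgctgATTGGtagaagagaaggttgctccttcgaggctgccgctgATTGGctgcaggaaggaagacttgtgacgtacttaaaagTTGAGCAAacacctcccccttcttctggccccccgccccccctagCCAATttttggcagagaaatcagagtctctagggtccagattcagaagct
Got1: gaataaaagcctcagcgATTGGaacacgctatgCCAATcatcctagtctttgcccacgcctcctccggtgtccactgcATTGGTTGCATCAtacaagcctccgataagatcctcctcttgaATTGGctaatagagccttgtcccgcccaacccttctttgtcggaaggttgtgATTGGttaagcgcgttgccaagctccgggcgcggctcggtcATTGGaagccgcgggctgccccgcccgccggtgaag
Tat: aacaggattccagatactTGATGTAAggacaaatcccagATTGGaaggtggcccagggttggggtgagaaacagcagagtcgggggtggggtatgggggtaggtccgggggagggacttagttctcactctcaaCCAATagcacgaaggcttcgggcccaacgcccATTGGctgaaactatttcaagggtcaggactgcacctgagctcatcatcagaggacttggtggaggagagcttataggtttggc
The Got1 stretch held 6 CCAAT boxes, with 1 element TGATGNAA, read as TTGCATCA, directly beside the box at 172 to 168 bases before the start. The Tat stretch held 3 CCAAT boxes and 1 such element, TGATGTAA. Aass held 3 CCAAT boxes and 1 C/EBP element, Mccc1 held 2 boxes and Uroc1 held 1, and no marked matches overlap. RefSeq gave 36 starts for 31 members. CCAAT was found in 23 of these 36 stretches and in 34.0% of all 33469 stretches of this length. TGATGNAA was in 2 of 36, which are the 2 shown, and in 3.40% of all. TTGCNNAA was in 6 of 36 and in 9.22% of all. The TATA box TATAAA was in 4 of 36 and in 12.9% of all, and the glucocorticoid receptor half-site AGAACA was in 4 of 36 and in 17.5% of all. The motifs were chosen after these sequences had been read. A match describes letters and not a bound site.

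Histidine is broken down by histidine ammonia-lyase (Hal), which removes the amino group, and then by urocanate hydratase (Uroc1). Uroc1, whose start is printed above, lies on chromosome 4 from 122244711 to 122276361 in build rn6. It showed 112, 131, 110, 98.4 and 91.2 TPM in the SD samples and 165, 184, 177, 164 and 165 TPM in the EHBR samples. All 5 EHBR samples were above the highest SD sample, and the EHBR values lay close together. Uroc1 rose by 0.66 (log2, SE 0.10, adjusted p = 0.00323, limma), or 1.57-fold in mean TPM. Samples 1 to 3 alone gave 0.57 and samples 4 and 5 alone gave 0.79, and both passed.

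Hal, the enzyme before it, lies on chromosome 7 from 34326087 to 34356413. It showed 72.8, 111, 74.5, 50.3 and 57.0 TPM in SD and 97.0, 122, 101, 122 and 122 TPM in EHBR. SD sample 2 lay above EHBR samples 1 and 3, so the strains overlap. Its difference of 0.66 (SE 0.19) had an adjusted p of 0.065 in limma. Without SD sample 2 it was 0.83, with an adjusted p of 0.00764, and the gene then passed. With any other 1 sample left out Hal did not pass (adjusted p from 0.0802 to 0.157, limma). After median centring the difference was 0.49 and did not pass (adjusted p = 0.126). Samples 1 to 3 alone gave 0.32 (adjusted p = 0.325) and samples 4 and 5 gave 1.17 (adjusted p = 0.0194), while the test of the difference between these gave an adjusted p of 0.136.

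Serine, glycine and sarcosine are broken down by a larger group of 7 members. Sardh, sarcosine dehydrogenase of the mitochondrion, lies on chromosome 3 from 5737200 to 5802129. It showed 63.5, 61.7, 57.6, 71.5 and 60.7 TPM in SD and 84.1, 89.0, 88.0, 87.8 and 93.7 TPM in EHBR. The strains did not overlap, and the lowest EHBR sample was above the highest SD sample by more than the SD of either strain (5.21 and 3.46 TPM). Sardh rose by 0.49 (SE 0.08, adjusted p = 0.00549, limma). After median centring the difference was 0.32 and no longer passed (adjusted p = 0.279).

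Sds, serine dehydratase, turns serine into pyruvate for glucose synthesis. It lies on chromosome 12 from 41620393 to 41627741, 9253 bases from its paralogue Sdsl. Sds showed 56.3, 65.7, 87.0, 3.47 and 4.34 TPM in SD and 137, 144, 307, 10.7 and 25.0 TPM in EHBR. Samples 4 and 5 of both strains were far below samples 1 to 3, and on each side of that division every EHBR sample exceeded every SD sample. Over all 10 samples the difference of 1.57 (SE 1.07) did not pass (adjusted p = 0.419, limma). With a term for the division its adjusted p was 0.0039. Samples 1 to 3 alone gave 1.40 (adjusted p = 0.0433), and samples 4 and 5 gave 1.83 (adjusted p = 0.052). Sds had as few as 56 reads in a sample, the lowest count of any member. It was also the 1 member whose deposited TPM and FPKM values moved apart between samples by over 0.3 on the log2 scale, by up to 0.505; with FPKM the difference was 1.53. Sdsl itself, which is encoded beside it, had 16.8 to 28.6 TPM in SD and 15.8 to 21.3 TPM in EHBR.

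Gldc is the glycine decarboxylase of the glycine cleavage system. It showed 17.5, 12.2, 17.5, 19.7 and 28.5 TPM in SD and 24.2, 28.0, 31.5, 30.2 and 30.8 TPM in EHBR. SD sample 5 lay above EHBR samples 1 and 2, and the other 4 SD samples lay below all EHBR samples. The difference was 0.62 (SE 0.18, adjusted p = 0.0756, limma), and without SD sample 5 it was 0.77 and passed (adjusted p = 0.0115). With any other 1 sample left out Gldc did not pass (adjusted p from 0.0963 to 0.172, limma). Nor did Gldc pass after median centring (0.45, adjusted p = 0.386). Of its partners, Amt had 32.8 to 44.4 TPM in SD and 38.7 to 48.6 TPM in EHBR, and Gcsh had 180 to 247 TPM in SD and 190 to 233 TPM in EHBR. Shmt1, which passes a carbon from serine to folate, had 44.9 to 88.0 TPM in SD and 59.2 to 101 TPM in EHBR. None of these 3 passed the test over all samples.

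Leucine, isoleucine and valine share the branched-chain keto acid dehydrogenase, whose first component is built from Bckdha and Bckdhb. Leucine alone then goes through isovaleryl-CoA dehydrogenase (Ivd) and the carboxylase formed by Mccc1 and Mccc2. Mccc1 lies on chromosome 2 from 122550775 to 122690617. It showed 21.7, 22.2, 21.2, 20.9 and 18.6 TPM in SD and 33.4, 36.8, 38.3, 39.4 and 33.2 TPM in EHBR. The groups were far apart relative to their spread, with SDs of 1.39 and 2.82 TPM. Mccc1 rose by 0.76 (SE 0.09, adjusted p = 0.000802, limma), or 1.73-fold in mean TPM, which was the smallest adjusted p of the 38 members. It passed on both sides of the division, at 0.71 in samples 1 to 3 and 0.84 in the other two.

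Mccc2, the other subunit of the same carboxylase, had 46.8 to 53.1 TPM in SD and 58.0 to 65.1 TPM in EHBR, without overlap. Its adjusted p was 0.0603 over all samples and 0.0155 with the term for the division. Bckdhb had 106 to 128 TPM in SD and 134 to 146 TPM in EHBR, also without overlap, with an adjusted p of 0.0691 over all samples and 0.00884 with that term. Bckdha, its partner, had 160 to 179 TPM in SD and 151 to 197 TPM in EHBR. Ivd pointed the other way, with 115 to 152 TPM in SD and 109 to 127 TPM in EHBR. Its difference of -0.19 did not pass (adjusted p = 0.335), but after median centring it was -0.36 and did (adjusted p = 0.0269). Members of 1 pathway thus had differences of both signs.

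Lysine breakdown starts with Aass, a mitochondrial enzyme that joins lysine to a keto acid, and passes later through glutaryl-CoA dehydrogenase (Gcdh). Aass, whose start is printed above, lies on chromosome 4 from 50152452 to 50200328. It showed 37.8, 44.6, 40.5, 60.7 and 41.0 TPM in SD and 55.0, 67.9, 68.7, 96.5 and 85.9 TPM in EHBR. SD sample 4 exceeded EHBR sample 1, and all other EHBR samples were above all SD samples. Aass rose by 0.72 (SE 0.17, adjusted p = 0.0287, limma). That call was lost when any 1 of 7 samples was left out (adjusted p up to 0.0724) and after median centring (0.55, adjusted p = 0.239). Gcdh had 189 to 233 TPM in SD and 234 to 260 TPM in EHBR, without overlap, and did not pass (adjusted p = 0.178).

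Got1 and Got2 encode the cytosolic and the mitochondrial aspartate transaminase, and Gpt the alanine transaminase. Got1 lies on chromosome 1 from 263246248 to 263269762, 0.285 Mb from Abcc2, and its start is printed above. It showed 40.7, 51.8, 54.9, 43.0 and 51.2 TPM in SD and 86.7, 87.3, 135, 84.8 and 73.1 TPM in EHBR. Every EHBR sample was above every SD sample, and EHBR sample 3 stood well above the other 4. Got1 rose by 0.91 (SE 0.16, adjusted p = 0.00573, limma), or 1.93-fold in mean TPM. Without EHBR sample 3 the difference was 0.77 and still passed (adjusted p = 0.00663). Samples 1 to 3 alone gave 1.03, which passed, and samples 4 and 5 gave 0.73, which did not (adjusted p = 0.0547). Got2 had 262 to 294 TPM in SD and 257 to 308 TPM in EHBR, and Gpt 52.7 to 89.4 TPM in SD and 60.0 to 92.4 TPM in EHBR. Neither passed.

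Etnppl encodes a lyase that removes ethanolamine phosphate, a building block of phospholipids. It lies on chromosome 2 from 235738416 to 235760352, and with a mean of 13.3 TPM over all samples it was the lowest of the members. It showed 7.46, 14.1, 8.20, 6.02 and 9.39 TPM in SD and 16.0, 18.9, 26.8, 12.7 and 13.6 TPM in EHBR. SD sample 2 lay above EHBR samples 4 and 5, so the strains overlap. Etnppl rose by 0.89 (SE 0.23), with an adjusted p of 0.0468 in limma, just under the threshold. Leaving out any 1 of 8 samples ended the call (adjusted p up to 0.122), as did median centring (0.72, adjusted p = 0.0986).

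**Figure D2:**
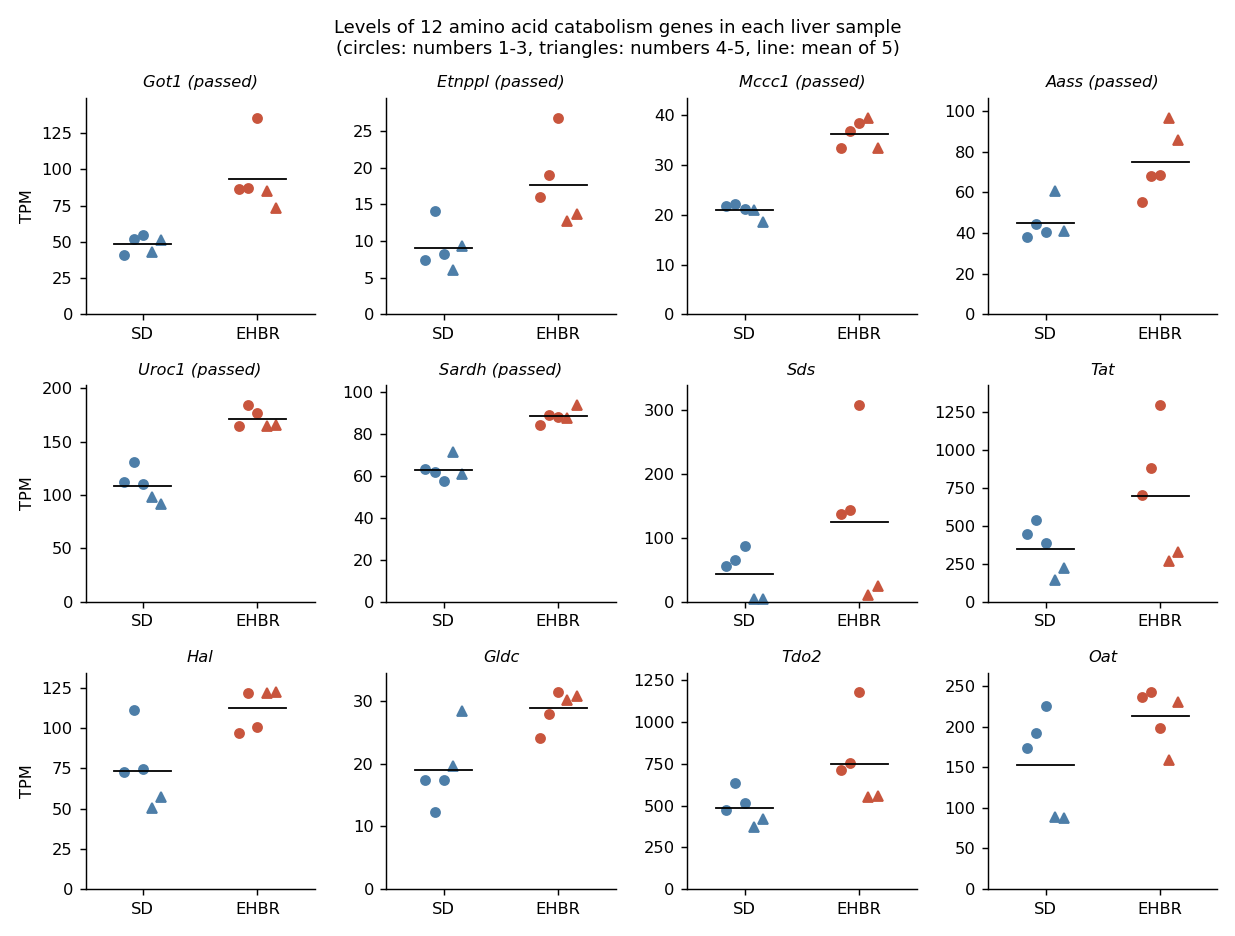
TPM of 12 members in each sample, SD in blue and EHBR in red, with samples 1 to 3 as circles, samples 4 and 5 as triangles and the mean of 5 as a line. The 6 genes that passed the test come first; in Sds and Tat the triangles of both strains lie far below the circles.

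Tyrosine breakdown runs from tyrosine aminotransferase (Tat) through Hpd and Hgd to Fah, which splits the last intermediate. Tat lies on chromosome 19 from 41675355 to 41686229, and its start is printed above. It showed 445, 537, 388, 140 and 225 TPM in SD and 706, 882, 1294, 265 and 330 TPM in EHBR. As with Sds, samples 4 and 5 were the lowest of each strain, and on each side of the division all EHBR samples were above all SD samples. Over all samples the difference of 0.92 (SE 0.47) did not pass (adjusted p = 0.289, limma), and with the term for the division its adjusted p was 0.00835. Samples 1 to 3 alone gave 1.04 (adjusted p = 0.0371), and samples 4 and 5 gave 0.74 (adjusted p = 0.107). The 3 later enzymes showed smaller differences. Hpd, the second most abundant member, had 1609 to 2427 TPM in SD and 1545 to 1777 TPM in EHBR. Hgd had 160 to 242 TPM in SD and 183 to 219 TPM in EHBR. Fah had 355 to 434 TPM in SD and 425 to 505 TPM in EHBR, with an adjusted p of 0.175 over all samples and 0.0144 with the term.

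Tryptophan is opened by Tdo2 and then passes through Kmo, Kynu and Haao on the way to NAD, while Ddc is a decarboxylase of aromatic amino acids. Tdo2 showed 473, 635, 514, 370 and 420 TPM in SD and 714, 756, 1179, 550 and 560 TPM in EHBR. SD sample 2 exceeded EHBR samples 4 and 5, and on each side of the division the strains did not overlap. The difference was 0.60 (SE 0.21, adjusted p = 0.13, limma) over all samples, and with the term for the division its adjusted p was 0.0159. Kmo had 45.2 to 75.6 TPM in SD and 64.8 to 89.3 TPM in EHBR, and Haao had 211 to 256 TPM in SD and 264 to 300 TPM in EHBR, without overlap. Neither passed over all samples, and with that term both did (adjusted p = 0.0308 and 0.0391). Kynu, which cuts the kynurenines, had 144 to 202 TPM in SD and 99.9 to 178 TPM in EHBR. It was lower in EHBR among samples 1 to 3 (-0.50, adjusted p = 0.0427) and not over all samples (adjusted p = 0.275). Ddc had 22.7 to 29.0 TPM in SD and 25.4 to 32.6 TPM in EHBR.

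Ornithine aminotransferase (Oat) carries ornithine towards glutamate, and Prodh2 oxidises hydroxyproline. Oat showed 174, 192, 225, 89.3 and 87.5 TPM in SD and 237, 243, 198, 160 and 231 TPM in EHBR. The low SD samples were 4 and 5, and the strains overlap. The difference was 0.56 (SE 0.26, adjusted p = 0.249, limma). Samples 1 to 3 alone gave 0.20 (adjusted p = 0.379) and samples 4 and 5 gave 1.11 (adjusted p = 0.0426), and the difference between these was not called (adjusted p = 0.109). Prodh2 had 70.4 to 158 TPM in SD and 112 to 130 TPM in EHBR. The proline dehydrogenase Prodh is listed in the files as Prodh1, matched here by its gene ID outside the selection by symbol, on chromosome 11 from 87058616 to 87075785. Prodh1 showed 34.6, 41.5, 29.1, 44.9 and 40.6 TPM in SD and 56.9, 56.6, 72.2, 75.4 and 76.0 TPM in EHBR, without overlap. It rose by 0.81 (SE 0.14, adjusted p = 0.00581, limma), and after median centring the difference of 0.64 did not pass (adjusted p = 0.133).

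The methionine cycle held the most abundant member. Mat1a makes S-adenosylmethionine, Gnmt uses it to methylate glycine, Ahcy splits the product, Bhmt returns homocysteine to methionine with betaine, and Cbs leads homocysteine towards cysteine. Bhmt, the member with the highest mean, had 1202 to 2718 TPM in SD and 1614 to 2999 TPM in EHBR, with an adjusted p of 0.219 over all samples and 0.0371 with the term for the division. Mat1a had 523 to 901 TPM in SD and 611 to 1332 TPM in EHBR. Gnmt had 75.1 to 169 TPM in SD and 111 to 153 TPM in EHBR, and Ahcy had 477 to 556 TPM in SD and 467 to 624 TPM in EHBR. Cbs was the 1 member with every EHBR sample below every SD sample, at 128 to 159 TPM in SD and 108 to 127 TPM in EHBR. Its difference of -0.27 did not pass (adjusted p = 0.112), and after median centring it was -0.44 and did (adjusted p = 0.0334). Cdo1 and Csad, which turn cysteine towards taurine, had 827 to 1453 and 178 to 312 TPM in SD and 724 to 1459 and 251 to 299 TPM in EHBR. The row that carries the gene ID of Cth, named LOC103691744, had 153 to 436 TPM in SD and 196 to 554 TPM in EHBR.

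**Figure D3:**
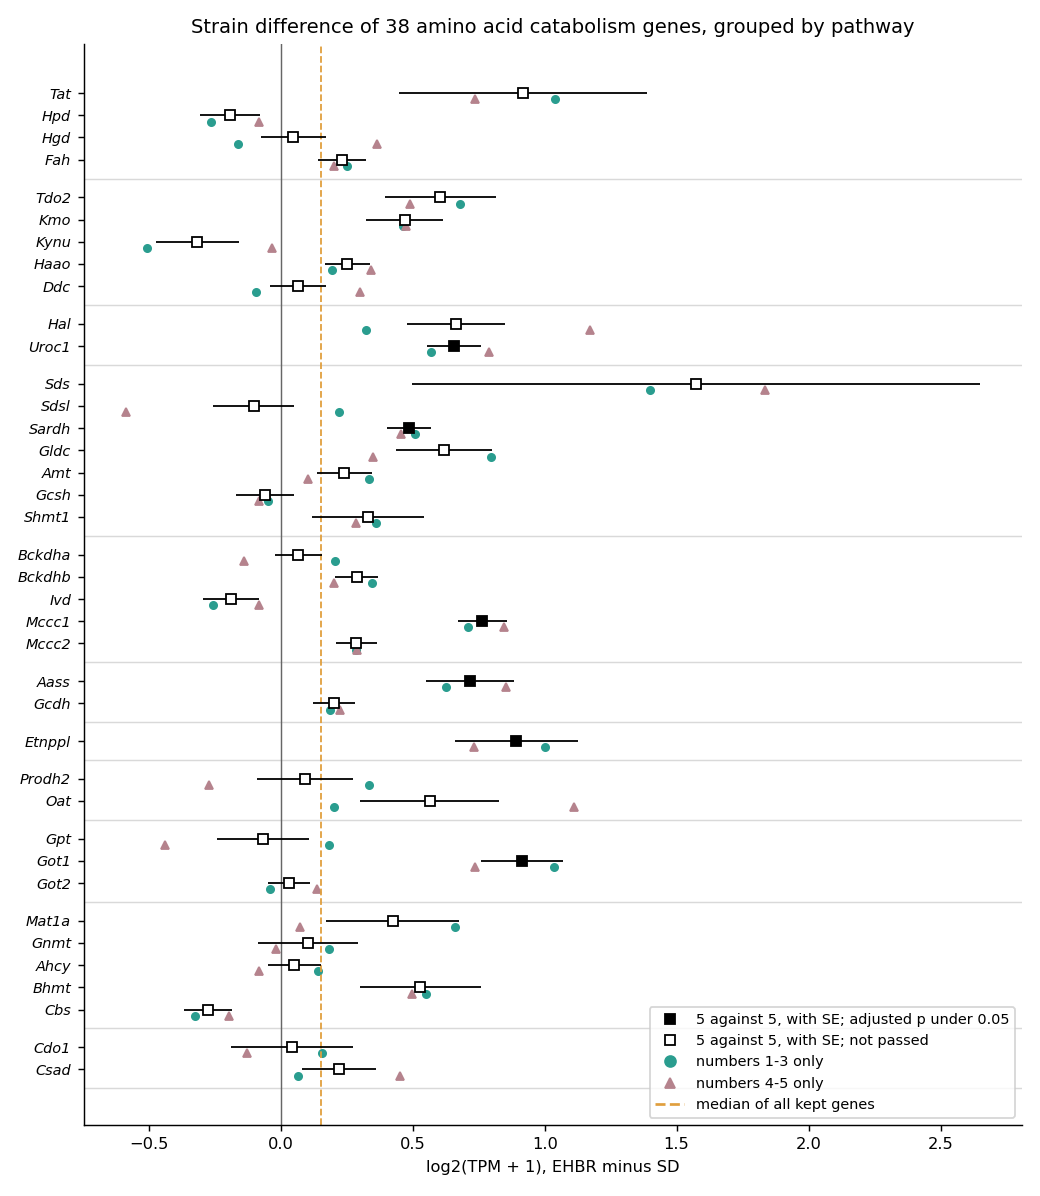
Strain difference of each of the 38 members, log2 of TPM + 1, EHBR minus SD, in blocks by pathway. Squares give the fit of 5 against 5 with its SE (filled where the adjusted p was under 0.05), and below them circles give samples 1 to 3 alone and triangles samples 4 and 5 alone. The widest bar is that of Sds, from the spread between samples 1 to 3 and samples 4 and 5.

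A term for the division raised the number of called members. With it 19 of the 38 were higher and 2 lower (Cbs and Ivd), where 13.6% of kept genes were called higher and 3.36% lower. The 6 genes called without the term were among the 19. The added 13 were Bckdhb, Bhmt, Fah, Gcdh, Gldc, Haao, Hal, Kmo, Mccc2, Sds, Shmt1, Tat and Tdo2. Among samples 1 to 3 alone, 9 members were higher and 1 lower, where 4.35% and 2.17% of kept genes were called. Among samples 4 and 5 alone, 4 were higher (Hal, Mccc1, Oat and Uroc1) and none lower in limma, where the shares were 4.15% and 1.01%. At an unadjusted p under 0.05, 2 members were lower there, as were 575 of the 11083 kept genes. No member passed the test of a strain difference that differs between the sides (0.271% of kept genes did). At an unadjusted p under 0.05 it counted 6 of the 38 members and 2252 of the 11083 kept genes. The smallest adjusted p of a member was 0.0832, for Sdsl.

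The division itself was large in a few members. Mean TPM of Sds in samples 1 to 3 was 17.8-fold that in samples 4 and 5 in SD and 11.0-fold in EHBR. For Tat these ratios were 2.50 and 3.23, for Mat1a 1.32 and 1.95, and for Oat 2.23 and 1.16. In 6 members (Tat, Tdo2, Sds, Shmt1, Ivd and Cdo1) samples 1 to 3 were all above samples 4 and 5 in both strains, as in 25.5% of kept genes. In 4 members (Fah, Gcsh, Bckdhb and Bhmt) they were all below, as in 5.49%. For Bhmt the ratios were 0.631 and 0.681.

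**Figure D4:**
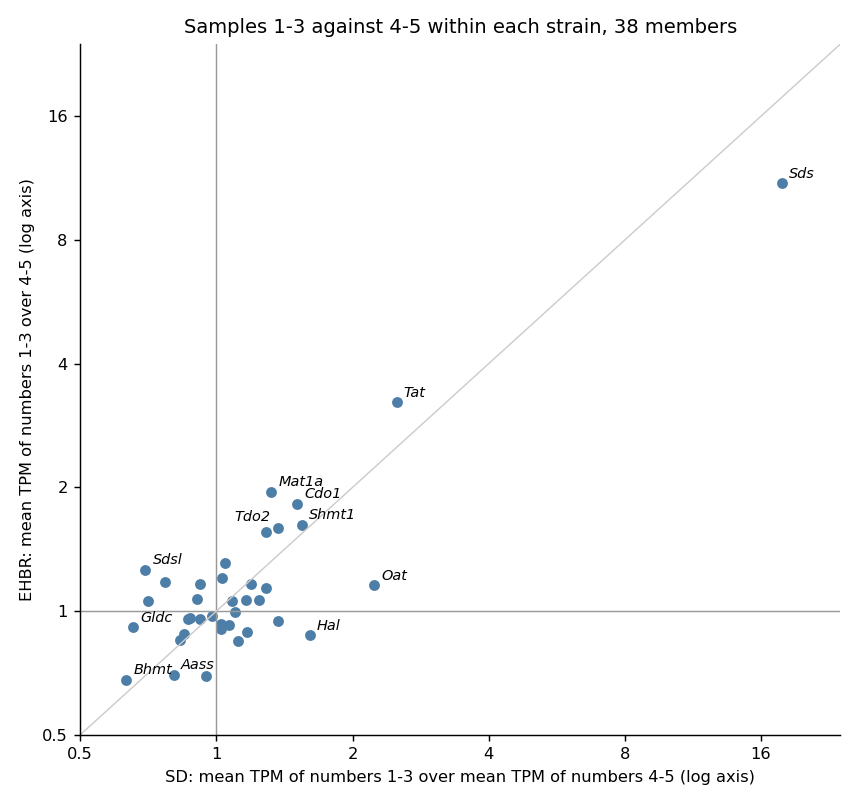
Mean TPM of samples 1 to 3 divided by that of samples 4 and 5, for SD on the horizontal and for EHBR on the vertical log axis, with 1 point per member and the line of equal ratios. Sds at 17.8 and 11.0 and Tat at 2.50 and 3.23 lie far from 1 in both strains; Oat at 2.23 and 1.16 lies far from it in SD.

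Of 71 further symbols of amino acid breakdown outside the set, 63 were kept. Of these 7 were higher in EHBR and 2 lower (limma), against 3.82% and 1.63% of kept genes. Their median log2 difference was 0.20, against 0.15 over all kept genes. With the term for the division 20 were higher and 4 lower, against 13.6% and 3.36% of kept genes. Voom called 2 of the 63 higher and 1 lower, against 1.91% and 2.32% of 11044 genes. The gene of the third histidine step, the imidazolonepropionase Amdhd1, lies 5220 bases from Hal. Amdhd1 averaged 29.4 ± 8.03 TPM in the SD strain and 78.8 ± 14.9 TPM in EHBR (± standard deviation, n = 5 in each), and rose (log2 difference 1.42, SE 0.20, adjusted p = 0.00204, limma). Dbt, the second component of the branched-chain dehydrogenase, rose from 23.0 ± 2.81 to 38.4 ± 0.598 TPM (0.72, adjusted p = 0.00152). The larger of the 2 falls was that of the peroxisomal pipecolate and sarcosine oxidase Pipox, from 147 ± 20.8 to 64.7 ± 2.88 TPM (-1.16, adjusted p = 7.76e-05). Sardh and Pipox, which both oxidise sarcosine, thus had calls of opposite direction. Bhmt2, which methylates homocysteine from S-methylmethionine, rose by 0.54 (adjusted p = 0.00316), from 289 to 421 mean TPM.

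The remaining calls in that list were nearer the threshold. The choline dehydrogenase Chdh rose from 78.5 to 117 mean TPM (0.59, adjusted p = 0.03), and the glycerate kinase Glyctk from 134 to 177 (0.41, adjusted p = 0.0466). The glutaminase Gls2 rose from 76.9 to 119 mean TPM (0.63, adjusted p = 0.0255) and the aminoadipate aminotransferase Aadat from 117 to 161 (0.47, adjusted p = 0.0316). The thiolase Acat1 fell from 203 to 152 mean TPM (-0.41, adjusted p = 0.0487). After median centring none of Chdh, Glyctk, Gls2, Aadat, Acat1 and Bhmt2 passed, while Amdhd1, Dbt and Pipox passed under all 24 other settings.

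Transcripts for factors and hormone-responsive genes that touch these pathways showed few calls. Over all kept genes 3.82% were called higher and 1.63% lower in limma, and with the term for the division 13.6% and 3.36%. The shares were 4.35% and 2.17% in samples 1 to 3 alone, and 4.15% and 1.01% in samples 4 and 5 alone. Of 10 kept regulators of amino acid breakdown none passed over all samples in limma or voom (2 at an unadjusted p under 0.05), and the most abundant, Creb3l3, a liver transcription factor, averaged 308 TPM in SD and 316 TPM in EHBR. With the term for the division, 2 regulators were higher, Foxo1 (adjusted p = 0.00672) and Ppara (adjusted p = 0.0273). In samples 1 to 3 alone Nr3c1, the glucocorticoid receptor, was lower (-0.52, adjusted p = 0.0496), and in samples 4 and 5 alone Foxo1 (1.06, adjusted p = 0.0413) and the bile acid receptor gene Nr1h4 (0.92, adjusted p = 0.049) were higher. Of 8 kept genes that respond to glucocorticoids or glucagon in liver 1 was higher and 1 lower, with a median log2 difference of 0.50. Fkbp5, a chaperone of steroid receptors, rose from 6.93 ± 0.672 to 12.1 ± 3.45 TPM (0.68, adjusted p = 0.0466, limma). Sgk1, a kinase, fell from 20.6 ± 10.9 to 8.26 ± 2.09 TPM (-1.13, adjusted p = 0.0416). The Fkbp5 call was lost in 17 of the 24 other settings, among them median centring (0.52, adjusted p = 0.124), samples 4 and 5 alone (0.29, adjusted p = 0.294) and 8 of the 10 sets with 1 sample left out (adjusted p up to 0.122). The Sgk1 call was lost in 11, of which 8 left out 1 sample (adjusted p up to 0.103). With the term for the division Per1, a clock gene, was also higher, which made 2 higher and 1 lower. Of 9 genes of the response to amino acid scarcity none passed over all samples in limma or voom (1 at an unadjusted p under 0.05), nor with the term for the division, and Atf5, the most abundant, averaged 889 TPM in SD and 921 TPM in EHBR. In samples 1 to 3 alone 3 of the 9 were higher in EHBR: the asparagine synthetase gene Asns (1.66, adjusted p = 0.00349) and the serine synthesis genes Phgdh (1.85, adjusted p = 0.0186) and Psat1 (1.84, adjusted p = 0.00718). In samples 4 and 5 none passed, and these differences were -0.60, -0.55 and 0.05. Of 13 amino acid carriers 1 was higher, Slc3a2, the heavy chain of several exchangers (59.9 ± 8.82 to 98.5 ± 14.9 TPM, 0.71, adjusted p = 0.00916), and the median of the carriers was 0.44. After median centring Slc3a2 did not pass (0.54, adjusted p = 0.0769). With the term for the division 7 of the 13 carriers were higher and none lower, against 13.6% and 3.36% of kept genes. The 7 were Slc16a10, Slc36a1, Slc38a2, Slc38a3, Slc38a4, Slc3a2 and Slc7a2.

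Amino acid breakdown is concentrated in the periportal part of the lobule. Of 10 periportal markers, a list that includes the members Hal and Sds, all had a difference above 0, as had 73.1% of kept genes. Their median was 0.65, and 2 passed, where 3.82% of kept genes were called higher. These were Ass1 of the urea cycle, which rose from 997 ± 119 to 1730 ± 190 TPM (0.80, adjusted p = 0.00204, limma), and Gls2, which did not pass in voom. With the term for the division 7 passed, all higher (Arg1, Ass1, Cps1, Gls2, Hal, Hsd17b13 and Sds), against 13.6% of kept genes. In samples 1 to 3 alone 5 markers were higher, against 4.35% of kept genes. Their summed level ranged from 2820 to 4284 TPM in SD and from 4135 to 7762 TPM in EHBR. Of 9 kept pericentral markers, which include Oat, none passed over all samples in limma or voom (1 at an unadjusted p under 0.05), nor with the term, with a median of -0.09, and Cyp2e1, the most abundant, averaged 1260 TPM in SD and 1218 TPM in EHBR. Their summed level ranged from 1993 to 3007 TPM in SD and from 1942 to 2797 TPM in EHBR. In samples 4 and 5 alone Cyp1a2 and Oat were higher and the ammonium transporter gene Rhbg lower, and in samples 1 to 3 alone the glutamine synthetase gene Glul was lower (-0.54, adjusted p = 0.0109). In bulk tissue, fewer cells of a type and less RNA per cell cannot be told apart.

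Markers of other liver cells were measured beside these values. Of 5 endothelial markers 2 were higher in EHBR in limma, against 3.82% of kept genes. These were Stab2 (0.92, adjusted p = 0.00673) and Kdr (0.66, adjusted p = 0.00916). With the term for the division 4 were higher, against 13.6% of kept genes. Voom called 1 of the 5 higher, against 1.91% of 11044 genes. The sum of the endothelial list was 44.9 to 58.7 TPM in SD and 57.8 to 85.5 TPM in EHBR. The sums of 6 Kupffer cell markers were 227 to 279 TPM in SD and 247 to 445 TPM in EHBR, and those of 6 stellate cell markers 74.1 to 165 TPM in SD and 126 to 165 TPM in EHBR. The 4 kept erythroid markers summed to 980 to 2046 TPM in SD and to 1322 to 3305 TPM in EHBR. None passed over all samples in limma or voom (3 at an unadjusted p under 0.05). With the term for the division 1, Hba-a2, was higher, against 13.6% of kept genes. In samples 1 to 3 alone all 4 (Alas2, Hba-a1, Hba-a2 and Hbb) were higher in EHBR, against 4.35% of kept genes. Their median difference was 1.26 there and -0.11 in samples 4 and 5. For 2 of them the difference between the sides was called, as for 0.271% of kept genes. The sums of 5 cholangiocyte markers were 15.2 to 17.5 TPM in SD and 12.2 to 13.9 TPM in EHBR, while those of the 2 that were kept overlapped, at 12.05 to 15.84 TPM in SD and 10.86 to 12.52 TPM in EHBR. Neither of the 2 passed over all samples in limma, and voom called 1 lower, against 2.32% of 11044 genes. Epcam was lower with the term for the division and in samples 1 to 3 alone, against 3.36% and 2.17% of kept genes. Lymphocyte sums were 3.17 to 7.07 TPM in SD and 3.70 to 4.77 TPM in EHBR. The part of these cell types in the differences of the enzymes was not tested.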

How the data were processed

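Liver RNA was extracted with TRIzol, and directional libraries were made from its poly(A) fraction, per the labels. Reads were handled with featureCounts 1.6.3, HISAT2 2.1.0, Trimmomatic 0.38 and FastQC 0.11.7 on rn6, per the submitters' processing notes, in an order not stated. The strand setting of counting is unknown, so where genes on opposite strands overlap their values are uncertain. Near-identical copies are uncertain for another reason, since reads may map to either. The authors deposited TPM, FPKM and upper-quartile FPKM for 32883 genes in 10 samples. Strain and number came from the titles.

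Genes with 1 TPM or more in 5 or more samples were kept, 11083 in all, and log2(TPM + 1) was fitted on strain with limma 3.58.1 in R 4.3.3, with its trend option and a threshold of 0.05 after Benjamini-Hochberg adjustment. Whole reads were recovered from the deposited upper-quartile FPKM for 18036 genes within a tolerance of 0.0002 reads, at least 99.98% of each library's total, and give the depth and an added count alternative. Both steps were tested on simulated data. The values simulated for the fit held no division between samples 1 to 3 and 4 and 5. They therefore cannot show how the fit behaves with that division left in. Alternatives were FPKM, upper-quartile FPKM, pseudocounts of 0.1 and 5, no filter, a mean filter of 5 TPM, median centring, quantile normalization, a term for samples 1 to 3 against 4 and 5, each side alone, a replicate block and each sample left out. Voom on recovered reads and removal of a length trend were added after the data were seen.

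Named were members that passed, then those with the largest differences until 12 had sample values, and from each list the 2 called genes of lowest adjusted p, or its most abundant gene if none passed. Genes that passed only with the term or on 1 side of the division were named after their values were seen. Members and lists were chosen with earlier results of these data known. Promoters came from RefSeq, and coordinates of genes from the files. Tables and figures used Python 3.11.15, numpy 2.4.6, pandas 2.3.3, scipy 1.17.1 and matplotlib 3.10.9.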

Additional observations from a re-analysis of the deposited data

Results flagged for a closer look

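In 3 of 76 groups of 5 samples of 1 member, a single sample stood apart from the other 4 by more than Dixon's 95% critical value of 0.71 of the group's range; chance alone gives about 1 in 20. Hpd had 2427 TPM in SD sample 2, where the other SD samples had 1609 to 1841 TPM. Got1 had 135 TPM in EHBR sample 3, where the others had 73.1 to 87.3 TPM. Bhmt had 2718 TPM in SD sample 5, where the others had 1202 to 1582 TPM. Among the other genes named, Aadat had 178 TPM in EHBR sample 5, above 156 to 157.5 TPM in the others. Acat1 had 132 TPM in EHBR sample 4, below 153 to 158 TPM in the others. Atf5 had 1134 TPM in SD sample 4, above 771.5 to 860 TPM in the others.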

How the results depend on the processing

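Members called higher were 6. They were 3 with upper-quartile FPKM, with median centring, with voom on recovered reads and with the length trend removed, and 19 with the term for samples 1 to 3 against 4 and 5. Leaving out 1 sample gave 4 to 8. Members called lower were 0, and 1 with FPKM and among samples 1 to 3 alone. They were 2 with upper-quartile FPKM, median centring, the term, voom and the length trend removed, and 0 with each sample left out. Kept genes called were 604, 1878 with the term, and 381 to 608 with 1 sample left out, the lowest without EHBR sample 2.

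With the replicate number as a block, 10 members were higher and 0 lower, against 5.77% and 2% of kept genes. Deviations from the strain mean correlated across genes at 0.13, 0.29, 0.07, 0.25 and 0.27 for samples of the same number, and 3 of 5 SD samples correlated best with their own number, so the numbers were not taken as pairs.

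Of 29 genes whose difference was recomputed under all 24 settings, 0 changed sign. Most of the 29 were picked for a call or a large difference, so a change of sign was unlikely among them. Over all 38 members signs did change with scaling. The difference was above 0 for 31 in the main fit, for 25 with FPKM, and for 23 with upper-quartile FPKM, median centring or voom. In 10 of the 38 members, none of them called, samples 1 to 3 and samples 4 and 5 gave opposite signs (Hgd, Ddc, Sdsl, Bckdha, Prodh2, Gpt, Got2, Gnmt, Ahcy and Cdo1). The share of kept genes with opposite signs was not counted, so this number has no background beside it. The cause of each change was not tested. With 5 samples per strain, and with the division left in the residual, differences of genes such as Sds and Tat had SEs too wide for a call.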
